A study of Mus musculus with 12 samples.

Results

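The fibroblast growth factor (FGF) genes described here were 38 of the 24489 gene columns of the count table, chosen by name: every Fgf gene with a number, Fgfr1 to Fgfr4 and Fgfrl1, Spry1 to Spry4, Spred1 to Spred3, Dusp6, and Etv1, Etv4 and Etv5. The rule used names alone. They were, by role, 15 paracrine ligand genes, 3 endocrine ligand genes (Fgf15, Fgf21 and Fgf23), 4 genes of intracellular FGF homologous factors (Fgf11 to Fgf14), 5 receptor genes, 8 feedback inhibitor genes and 3 ETS transcription factor genes. They were described in the neurons, glia, otic mesenchyme and hair cells of the developing mouse cochlea, by stage.

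The study sorted red fluorescent cells of dissociated mouse cochlea into 384-well plates and sequenced them one by one with Smart-seq2, a method that reads whole transcripts and carries no molecular identifiers. The 12 plates are the replicates used here: 2 at E14.5, 2 at E15.5, 3 at E16.5, 1 at E17.5, 2 at E18.5 and 2 at P3, where E counts embryonic and P postnatal days. The P3 plates came from an earlier study of the same group. By the labels, 11 plates came from PVcre;Ai14 mice, in which Cre under the parvalbumin locus switches on the red reporter tdTomato. E14.5 replicate 2 came from TrkCcre mice, with Cre at the neurotrophin-3 receptor gene, and the study's methods give TrkCcre mice for E14.5 in general. The groups compared were stages of development and classes of cells, with no treatment. Cells of several animals were pooled in an experiment and no plate was tied to its own animals. The p-values therefore measure the spread between plates, which may be technical. At E14.5 and E15.5 the region around the modiolus was taken, and later the spiral ganglion after the cochlear capsule had been removed. Plate names carried 4 series: SS2_20 held E14.5, E15.5, E16.5 replicate 3 and E17.5, SS2_18 held E16.5 replicates 1 and 2, SS2_19 held E18.5 and SS2_15 held P3. At E18.5 and P3 the stage and the plate series cannot be told apart.

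FGF ligands of the paracrine kind are secreted, are held by heparan sulfate, and bind receptor tyrosine kinases that pass the signal through the Ras and ERK kinases to the nucleus. Endocrine FGFs travel further and need Klotho proteins at the receptor, whereas FGF homologous factors stay inside the cell and bind voltage-gated sodium channels. Fgfrl1 encodes a receptor without the kinase domain. The Sprouty and Spred proteins and the ERK phosphatase Dusp6 dampen the pathway, and they and the ETS factors Etv4 and Etv5 are widely used as readouts of FGF and ERK signaling. In the ear, Fgf3 and Fgf10 act in the formation of the otic vesicle, Fgf20 in the growth of the sensory epithelium, and Fgf8 from inner hair cells together with Fgfr3 in the cells beside them in the patterning of the organ of Corti.

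The feedback and ETS genes Dusp6, Spred3, Etv1, Etv4 and Etv5 fell in the neurons from E14.5 to E18.5. The 250 bases before their start sites are shown for that reason (RefSeq, build GRCm38.p6, 5′ to 3′ on the gene's own strand), for all but Etv4. Capitals mark AGGAAG, a hexamer around the GGAA core bound by ETS proteins. It was read on either strand, and CTTCCT is the same match on the other strand. Dusp6 (chr10:99262981-99263230, + strand) held 1 match, and so did the first of the windows of Etv1 (chr12:38779832-38780081, + strand). The second window of Etv1 (chr12:38783461-38783710, + strand), both windows of Etv5 (chr16:22438369-22438618 and chr16:22439571-22439820, - strand) and that of Spred3 (chr7:29168648-29168897, - strand) held none.
Dusp6: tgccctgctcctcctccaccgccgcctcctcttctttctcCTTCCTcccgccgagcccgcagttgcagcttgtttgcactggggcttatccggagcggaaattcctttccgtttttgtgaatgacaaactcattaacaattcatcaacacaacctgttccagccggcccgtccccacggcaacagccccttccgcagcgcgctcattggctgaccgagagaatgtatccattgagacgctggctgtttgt
Etv1, first window: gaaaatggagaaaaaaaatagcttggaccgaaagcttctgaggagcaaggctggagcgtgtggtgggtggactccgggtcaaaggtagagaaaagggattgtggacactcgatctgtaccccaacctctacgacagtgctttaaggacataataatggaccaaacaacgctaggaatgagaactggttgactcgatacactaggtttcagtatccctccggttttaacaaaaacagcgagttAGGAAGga
Etv1, second window: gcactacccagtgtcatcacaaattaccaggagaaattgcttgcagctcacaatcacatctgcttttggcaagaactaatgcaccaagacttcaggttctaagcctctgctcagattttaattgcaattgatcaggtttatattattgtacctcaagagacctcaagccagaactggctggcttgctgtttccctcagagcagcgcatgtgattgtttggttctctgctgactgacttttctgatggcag
Etv5, first window: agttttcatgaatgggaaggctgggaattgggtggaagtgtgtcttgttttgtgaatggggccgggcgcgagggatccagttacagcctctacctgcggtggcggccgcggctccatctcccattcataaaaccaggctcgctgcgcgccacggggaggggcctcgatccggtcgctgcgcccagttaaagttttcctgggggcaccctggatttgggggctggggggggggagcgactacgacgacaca
Etv5, second window: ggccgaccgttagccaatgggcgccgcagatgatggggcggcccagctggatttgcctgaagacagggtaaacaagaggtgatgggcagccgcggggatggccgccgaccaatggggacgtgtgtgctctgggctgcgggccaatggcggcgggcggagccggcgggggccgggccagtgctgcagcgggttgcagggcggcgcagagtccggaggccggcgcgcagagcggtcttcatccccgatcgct
Spred3: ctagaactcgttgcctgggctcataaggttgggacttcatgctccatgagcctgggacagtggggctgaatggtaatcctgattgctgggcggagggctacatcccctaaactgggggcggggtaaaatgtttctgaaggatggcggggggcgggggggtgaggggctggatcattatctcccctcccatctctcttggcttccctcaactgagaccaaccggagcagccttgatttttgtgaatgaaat
Over all 32851 windows of this length in the same table, 9686 (29.5%) held AGGAAG and 2269 (6.91%) held the longer CCGGAAG, again on either strand. The base before the shared GGAAG differs, so no position matches both. Of the 38 genes, 28 had a window, and 7 of these held AGGAAG and 1 (Fgfrl1) held CCGGAAG. Counted by window, as for the whole table, 7 of their 37 windows held AGGAAG and 1 held CCGGAAG. These are matches of letters in short windows, not measured binding sites, and a window with no match says nothing about the factor.

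After wells with at most 1000 detected genes or 5% or more spike-in reads were dropped, 4226 of 4608 cells remained, with 80997594 to 303906928 counts per plate. Clusters named from markers gave 2309 spiral ganglion neuron-like (SGN-like), 1188 glia-like, 527 otic mesenchyme-like (OM-like), 74 hair cell-like (HC-like) and 37 otic epithelium-like cells, with the FGF genes left out of the clustering. Levels are given in CPM, the gene's share of the summed counts of a class in 1 plate, scaled to a fixed total. They compare 1 gene between samples. On the 6 SS2_20 plates the summed CPM of 10 neuronal markers was 11162 to 13644 in SGN-like cells, 116 to 174 in glia-like and 60.5 to 159 in OM-like cells. That of 12 OM markers was 27.5 to 141 in SGN-like, 1480 to 5458 in glia-like and 7451 to 22794 in OM-like cells. The part of OM transcripts in the levels of glia-like cells was not tested. On the SS2_18 and SS2_19 plates the few glia-like (8 to 17) and OM-like (4 to 10) cells per plate carried 2065 to 7505 and 2857 to 7484 CPM of the same neuronal markers. Classes were therefore compared on the SS2_20 plates alone. Since Cre lines defined the sort, glia-like and OM-like cells were those that came through a sort for red cells. The paper takes its OM cluster as a likely contaminant of the sort. Whether these cells carried the reporter was not tested. At E14.5, E15.5 and E17.5, Pvalb reached at most 16.7 CPM in glia-like and 3.20 CPM in OM-like cells, against 172 to 355 CPM in SGN-like cells. At E14.5 Ntrk3, the gene of the TrkCcre line, was 24.5 to 25.6 CPM in OM-like and 3.65 to 12.6 CPM in glia-like cells. SGN-like cells of that stage had 228 to 236 CPM of Ntrk3. In summed data, fewer cells expressing a gene and less RNA per cell cannot be told apart.

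Fgf10 and Fgf13 were highest in the neurons, Fgfr1 and Dusp6 were high in every class, Fgfr2 and Fgfr4 were highest in the mesenchyme, and Fgf8, Fgf20, Fgf15, Fgf21 and Fgfr3 were higher in cochlear hair cells than in neurons. A mean of at least 5 CPM in a neuron, glia, mesenchyme or hair cell class and stage was reached by 32 of the 38 genes, Fgf2 only in the single IHC-like cell of E17.5. The 6 below it in those classes were Fgf4, Fgf6, Fgf14, Fgf16, Fgf22 and Spry3, and Spry3 had no count in any cell of the 4 classes. In the annotation used for positions Spry3 lies on the scaffold GL456233.1 and not on a chromosome, and only uniquely mapped reads were counted. Whether its lack of counts comes from mapping or from expression was not tested. Set against exon length, as CPM per kilobase of exon, Fgf10 in SGN-like cells on SS2_20 plates (53.9 to 90.1) stood above Fgf9 (6.70 to 13.99) on every plate. On the same scale Fgfr1 in OM-like cells (54.8 to 70.9) stood above Fgfr2 (5.09 to 14.53) and Fgfr4 (2.41 to 36.6). Each of these groups lay apart from the one it is set beside. Exons of 5 of the genes are shared with another gene of the table, and reads there could fall to either gene. These pairs are Fgf2 with Nudt6, Fgf20 with Micu3, Fgf22 with Rnf126 and Spred3 with Ggn on the opposite strand, and Fgfr2 with Ctbp2 on the same strand.

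Fgf10, Fgf13 and Fgf11 were higher in neurons than in glia and mesenchyme, and Fgfr1 and Fgfrl1 were lower. The classes were compared on the 6 SS2_20 plates with the plate as a block, since each plate gave all 3 classes. The test was edgeR's quasi-likelihood test across all genes, adjusted by Benjamini and Hochberg. Fold changes are given as log2 with their standard error (SE). The filter on low counts kept 31 of the 38 genes and left out Fgf2, Fgf4, Fgf6, Fgf15, Fgf20, Fgf21 and Spry3. Between glia-like and SGN-like cells 53.1% of 16007 tested genes passed an adjusted p of 0.05 (28.0% higher and 25% lower in glia-like cells). Of the 31 FGF genes tested 5 were higher and 9 lower. Of the 11 paracrine ligand genes tested, 4 (36.4%) were lower in glia-like and 5 (45.5%) lower in OM-like than SGN-like cells, and none was higher. The median log2 fold change of all FGF genes tested was -0.81 against 0.06 over all genes. Fgf10, a ligand for the Fgfr2b receptor form, was 248 to 415 CPM (median 332) in SGN-like cells and 0.622 to 3.22 CPM (median 2.20) in glia-like cells (log2 fold change -7.51 ± 0.73 SE, edgeR adjusted p = 2.01e-06). In OM-like cells it was 0 to 10.99 CPM (median 1.51) (log2 fold change -7.32 ± 0.75 SE, edgeR adjusted p = 3.43e-06). No plate of either class overlapped the neurons.

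Fgf9, a ligand for epithelial to mesenchymal signaling, was shared by neurons and glia. It was 31.1 to 65.1 CPM (median 54.8) in SGN-like and 39.3 to 73.9 CPM (median 53.5) in glia-like cells (log2 fold change 0.01 ± 0.61 SE, edgeR adjusted p = 0.995). These ranges overlapped. In OM-like cells it was 0 to 4.94 CPM (median 0.713). That was lower than in SGN-like cells (log2 fold change -5.52 ± 0.78 SE, edgeR adjusted p = 5.27e-05) and than in glia-like cells (log2 fold change -5.52 ± 0.78 SE, edgeR adjusted p = 0.00021). Fgf18, a ligand known from cartilage and bone, was 6.51 to 17.2 CPM (median 9.23) in OM-like, 2.69 to 6.07 CPM (median 4.14) in SGN-like and 0 to 0.396 CPM (median 0.0592) in glia-like cells. The glia-like plates lay below every plate of the other two. Fgf18 was higher in OM-like than glia-like cells (log2 fold change 6.86 ± 1.03 SE, edgeR adjusted p = 0.000346) and lower in glia-like than SGN-like cells (log2 fold change -5.68 ± 0.99 SE, edgeR adjusted p = 0.000307). The other ligand genes that passed were Fgf8, Fgf5 and Fgf22. Fgf8 was 0.0610 to 4.42 CPM (median 0.814) in SGN-like cells, had 1 count in glia-like cells (edgeR adjusted p = 0.00129) and none in OM-like cells. With the floor at 3 counts over the group, it was at least 55.3-fold lower in OM-like cells (edgeR adjusted p = 0.00152). This bound was 18.47-fold without E14.5 replicate 2. Fgf5 was 3.05 to 54.4 CPM (median 7.93) in SGN-like, 0.820 to 14.9 CPM (median 3.14) in glia-like and 0 to 0.716 CPM (median 0.197) in OM-like cells. OM-like cells had less than SGN-like cells (log2 fold change -6.39 ± 1.39 SE, edgeR adjusted p = 0.00169) and than glia-like cells (log2 fold change -4.21 ± 1.29 SE, edgeR adjusted p = 0.0313). Fgf22, a ligand in synapse formation, was 0.313 to 0.886 CPM (median 0.624) in SGN-like cells and 0 to 0.373 CPM (median 0.0630) in glia-like cells (log2 fold change -2.75 ± 1.06 SE, edgeR adjusted p = 0.0438). In OM-like cells Fgf22 had 2 counts (edgeR adjusted p = 0.00237). Fgf1, Fgf3, Fgf7, Fgf16, Fgf17 and Fgf23 were tested and did not pass between these classes. Among them Fgf7 and Fgf17 reached 6.61 and 13.02 CPM in OM-like cells and Fgf1 22.8 CPM in SGN-like cells.

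Of the intracellular factors, Fgf13 and Fgf11 set neurons apart from both other classes. Fgf13 was 130.2 to 633 CPM (median 252) in SGN-like cells and 7.45 to 21.6 CPM (median 17.1) in glia-like cells (log2 fold change -4.03 ± 0.71 SE, edgeR adjusted p = 0.000333). It was 0 to 28.8 CPM (median 18.2) in OM-like cells (log2 fold change -4.15 ± 0.71 SE, edgeR adjusted p = 0.000286). Its neuronal plates lay above all others. Fgf11 was 25.5 to 72.3 CPM (median 36.5) in SGN-like cells and 2.79 to 13.9 CPM (median 8.86) in glia-like cells (log2 fold change -2.26 ± 0.73 SE, edgeR adjusted p = 0.0184). It was also lower in OM-like cells, at 0 to 20.0 CPM (median 5.16) (log2 fold change -2.75 ± 0.73 SE, edgeR adjusted p = 0.00636). Fgf12 was 15.8 to 115 CPM (median 31.2) in SGN-like and 10.8 to 50.8 CPM (median 31.6) in glia-like cells, with overlap (log2 fold change -0.52 ± 0.54 SE, edgeR adjusted p = 0.448). OM-like cells had less Fgf12, 2.42 to 15.1 CPM (median 8.32) (log2 fold change -2.17 ± 0.60 SE, edgeR adjusted p = 0.00792). Fgf14 did not pass in these comparisons and its highest level was 4.86 CPM.

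Receptors ran the other way. Fgfr1 was 59.8 to 98.2 CPM (median 86.7) in SGN-like cells and 153.4 to 192 CPM (median 177) in glia-like cells (log2 fold change 1.01 ± 0.11 SE, edgeR adjusted p = 4.36e-06). OM-like cells had 541 to 699.9 CPM (median 629) of it, more than SGN-like cells (log2 fold change 2.88 ± 0.11 SE, edgeR adjusted p = 1.84e-09) and than glia-like cells (log2 fold change 1.87 ± 0.11 SE, edgeR adjusted p = 2.03e-07). No plates overlapped between any of the classes. Fgfr2 was 0 to 1.39 CPM (median 0.408) in SGN-like, 1.34 to 14.7 CPM (median 4.80) in glia-like and 52.5 to 150.0 CPM (median 131) in OM-like cells, which lay above every plate of the others. Fgfr2 in OM-like cells passed against SGN-like cells (log2 fold change 7.91 ± 0.89 SE, edgeR adjusted p = 7.51e-06) and against glia-like cells (log2 fold change 4.82 ± 0.74 SE, edgeR adjusted p = 0.000417). Glia-like and SGN-like plates touched for Fgfr2, though the test passed (log2 fold change 3.09 ± 0.79 SE, edgeR adjusted p = 0.00506). Fgfr4, the receptor of the endocrine ligand Fgf15 among others, was 8.54 to 129.8 CPM (median 21.1) in OM-like cells and 0 to 1.27 CPM (median 0.101) in SGN-like cells (log2 fold change 7.70 ± 0.88 SE, edgeR adjusted p = 8.45e-06). In glia-like cells Fgfr4 was 0.145 to 1.90 CPM (median 0.373), lower than in OM-like cells (log2 fold change 6.06 ± 0.80 SE, edgeR adjusted p = 0.000135). Fgfr3 was 0 to 24.9 CPM (median 8.00) in OM-like, 1.03 to 5.11 CPM (median 2.38) in glia-like and 0.0522 to 2.52 CPM (median 0.381) in SGN-like cells, with overlaps. Between OM-like and SGN-like cells Fgfr3 passed (log2 fold change 3.78 ± 1.03 SE, edgeR adjusted p = 0.00718). Fgfrl1 was 0 to 2.58 CPM (median 0.537) in neurons and 16.7 to 29.0 CPM (median 23.9) in glia-like cells (log2 fold change 4.89 ± 0.86 SE, edgeR adjusted p = 0.000337). It was 24.5 to 88.5 CPM (median 40.4) in OM-like cells (log2 fold change 5.99 ± 0.92 SE, edgeR adjusted p = 0.000111). OM-like and glia-like cells did not pass the test for Fgfrl1 (log2 fold change 1.10 ± 0.72 SE, edgeR adjusted p = 0.305).

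The feedback inhibitors had no common direction. Spred1, a membrane-bound brake on Ras and ERK, was 117 to 137 CPM (median 126) in glia-like and 21.8 to 40.4 CPM (median 38.6) in SGN-like cells, higher on every glia-like plate (log2 fold change 1.86 ± 0.15 SE, edgeR adjusted p = 3.21e-07). It was also higher in OM-like than SGN-like cells (log2 fold change 1.70 ± 0.15 SE, edgeR adjusted p = 7.37e-07). Spred3 went the other way, at 30.3 to 71.8 CPM (median 46.8) in SGN-like and 14.6 to 20.7 CPM (median 18.8) in glia-like cells (log2 fold change -1.49 ± 0.32 SE, edgeR adjusted p = 0.00161). Spred3 was 7.88 to 33.9 CPM (median 16.6) in OM-like cells (log2 fold change -1.55 ± 0.33 SE, edgeR adjusted p = 0.00155).

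Of the Sprouty genes, Spry1 belonged to the mesenchyme, with 31.9 to 70.6 CPM (median 49.3) against 3.86 to 13.2 CPM (median 8.21) in neurons (log2 fold change 2.59 ± 0.39 SE, edgeR adjusted p = 8.49e-05). In glia-like cells Spry1 was 1.69 to 9.81 CPM (median 5.57) (log2 fold change 3.05 ± 0.40 SE, edgeR adjusted p = 0.00012). Spry4 differed between all 3 classes, with 13.4 to 35.6 CPM (median 25.1) in glia-like and 33.3 to 54.7 CPM (median 44.7) in SGN-like cells (log2 fold change -0.95 ± 0.29 SE, edgeR adjusted p = 0.0136). OM-like cells had 48.2 to 219.7 CPM (median 63.6) of Spry4 (against SGN-like, log2 fold change 0.95 ± 0.29 SE, edgeR adjusted p = 0.0141). Against glia-like cells they differed too (log2 fold change 1.89 ± 0.30 SE, edgeR adjusted p = 0.000518). Spred2 was 9.73 to 26.6 CPM (median 19.2) in OM-like and 4.302 to 16.2 CPM (median 10.5) in SGN-like cells (log2 fold change 0.87 ± 0.33 SE, edgeR adjusted p = 0.0397). Dusp6 was high everywhere, 23.5 to 435 CPM (median 195) in SGN-like, 147 to 271 CPM (median 175) in glia-like and 149 to 355 CPM (median 231) in OM-like cells, and passed in no comparison of classes. It did not pass between glia-like and SGN-like cells (log2 fold change -0.05 ± 0.46 SE, edgeR adjusted p = 0.932) or between OM-like and SGN-like cells (log2 fold change 0.37 ± 0.48 SE, edgeR adjusted p = 0.541). Spry2, 16.7 to 69.5 CPM (median 36.1) in SGN-like and 49.5 to 109.8 CPM (median 52.5) in glia-like cells, also did not pass (log2 fold change 0.62 ± 0.33 SE, edgeR adjusted p = 0.136).

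The ETS genes Etv4 and Etv1 led in different classes. Etv4 was highest in neurons, at 33.5 to 204 CPM (median 115), against 2.68 to 10.2 CPM (median 5.90) in glia-like cells (log2 fold change -4.24 ± 0.35 SE, edgeR adjusted p = 4.50e-07). In OM-like cells Etv4 was 33.8 to 55.9 CPM (median 45.3) (log2 fold change -1.31 ± 0.32 SE, edgeR adjusted p = 0.00341). OM-like cells stood above glia-like cells for it (log2 fold change 2.93 ± 0.33 SE, edgeR adjusted p = 4.05e-05). Etv1 was highest in the mesenchyme, with 36.4 to 85.2 CPM (median 55.8) against 1.33 to 13.1 CPM (median 7.01) in SGN-like cells (log2 fold change 3.23 ± 0.38 SE, edgeR adjusted p = 1.02e-05). In glia-like cells Etv1 was 3.87 to 8.17 CPM (median 7.02) (log2 fold change 3.18 ± 0.37 SE, edgeR adjusted p = 4.66e-05). No plate of the OM-like class overlapped the neurons for Etv1, and none of the glia-like class overlapped them for Etv4. Etv5 was 20.0 to 126 CPM (median 76.1) in SGN-like, 40.9 to 119 CPM (median 72.0) in glia-like and 45.5 to 79.9 CPM (median 65.2) in OM-like cells. It passed in none of the 3 comparisons (glia-like against SGN-like, log2 fold change 0.04 ± 0.20 SE, edgeR adjusted p = 0.888).

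Over the whole family, 10 genes were higher and 10 lower of 31 tested in OM-like against SGN-like cells, where 53.7% of all genes passed (27.8% higher, 25.9% lower). In OM-like against glia-like cells 8 were higher and 2 lower of 31, where 23.8% of all genes passed (12% higher, 11.8% lower). The medians were 0.37 and 0.43, against -0.01 and -0.06 over all genes. They were the same with genes absent from a class set at their bound. Of 23 coreceptor and heparan sulfate genes, 20 were tested, and 11 were higher and 2 lower in glia-like than SGN-like cells (median log2 fold change 0.70). Of the same genes 12 were higher and 2 lower in OM-like than SGN-like cells (1.27). The share of all genes that passed was 53.1% and 53.7% in these comparisons. The genes of the list that passed included the cell surface proteoglycans Sdc4 (5.65 ± 0.43 SE, adjusted p = 2.36e-07) and Gpc4 (5.50 ± 0.84 SE, adjusted p = 0.000105) in glia-like cells and Gpc3 (8.97 ± 0.65 SE, adjusted p = 1.69e-07) in OM-like cells. Among 18 cytoplasmic relay genes, all tested, 6 were higher and 7 lower in glia-like cells (-0.22) and 3 and 9 in OM-like cells (-0.23). Among them were the adaptors Gab1 (3.36 ± 0.19 SE, adjusted p = 1.76e-08) in glia-like and Shc1 (2.54 ± 0.20 SE, adjusted p = 3.90e-07) in OM-like cells and the ERK gene Mapk3 (-1.85 ± 0.15 SE, adjusted p = 4.95e-07) in OM-like cells. Among 13 other ERK feedback and target genes, all tested, 7 were higher and 2 lower in glia-like (0.69) and 8 and 1 in OM-like cells (1.35). They held the cyclin Ccnd1 (5.10 ± 0.39 SE, adjusted p = 2.18e-07) in glia-like cells and the receptor antagonist Il17rd (4.84 ± 0.79 SE, adjusted p = 0.000185) in OM-like cells. Between OM-like and glia-like cells the 3 lists had 7 and 3, 2 and 4, and 2 and 2 genes higher and lower, of 20, 18 and 13 tested (23.8% of all genes).

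Some of these calls rested on single plates. For glia-like against SGN-like cells, Fgf11 no longer passed without E15.5 replicate 2 (adjusted p = 0.0741), without E16.5 replicate 3 (0.0586) or without E17.5 replicate 1 (0.0558). Spry4 did not pass without E14.5 replicate 1 (0.0609). Fgf22 did not pass without E15.5 replicate 1 (0.0818) or any of those 3 plates (adjusted p up to 0.120). It fell under the low-count filter without E14.5 replicate 2, in OM-like against SGN-like cells too, and was not tested there. Fgf22 was lost as well without the low-count filter (0.0934), with the study's glial genes kept in the clustering (0.0873), with SGN-like cells of low glial markers (0.0629) and without the block (0.0699). Fgfr3 passed with all plates (log2 fold change 2.45 ± 0.94 SE, edgeR adjusted p = 0.0426). It did not pass without E14.5 replicate 1 or 2, E15.5 replicate 1, E16.5 replicate 3 or E17.5 replicate 1 (adjusted p up to 0.108). Nor did it without the low-count filter (0.0547), with the Reporting Summary filter on cells (0.178), with the glial genes kept in the clustering (0.0659), without the 5% of cells with the most counts (0.0643) or without the block (0.0904). Fgf8 in OM-like against SGN-like cells was lost without E17.5 replicate 1 (adjusted p = 0.0558). With SGN-like cells of low glial markers Fgf8 fell under the low-count filter in both comparisons. In OM-like against SGN-like cells Spry4 was lost without E15.5 replicate 2 (0.0716). Spred2 was lost there without E14.5 replicate 1 (0.0739), E14.5 replicate 2 (0.111), E16.5 replicate 3 (0.158) or E17.5 replicate 1 (0.164) and without the low-count filter (0.0707). Fgf5 was lost in OM-like against glia-like cells without E14.5 replicate 2, E15.5 replicate 2, E16.5 replicate 3 or E17.5 replicate 1 (adjusted p up to 0.0794), or with SGN-like cells of low glial markers in the fit (0.0572). Fgfr2 was lost in glia-like against SGN-like cells when the SS2_18 plates were added, with sums of at least 5 cells (adjusted p = 0.0787).

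Within the mesenchyme the receptors fell into different clusters, given here as a description. There is no test, because the clusters were found in the same cells. The 29 cells of an E14.5 cluster led by the cartilage genes Matn1 and Acan had 491 CPM of Fgfr2, 53.0 CPM of Fgfr3 and 181 CPM of Fgfrl1. The 53 cells of an E14.5 cluster led by Gdf5, a joint and cartilage growth factor, had 360.4, 105 and 240.4 CPM. The other 7 OM-like clusters had 18.7 to 149 CPM of Fgfr2, 0 to 9.86 of Fgfr3 and 14.8 to 57.2 of Fgfrl1. Both of these E14.5 clusters were thus high for all 3 receptor genes. Fgfr4 was highest in clusters of later stages, in whose leading genes it stood. It was 78.9 CPM in 87 E16.5 cells of a cluster led by Coch and Otor. It was 101 CPM in 56 E17.5 and E18.5 cells of a cluster led by Clec3a and Otor. The collagen genes Col9a1 and Col11a2 were also among the leading genes of that later cluster. It had 43.4 CPM of Fgfr2, 3.38 of Fgfr3 and 44.6 of Fgfrl1. The other 7 clusters had 4.03 to 32.3 CPM of Fgfr4, the highest in an E15.5 cluster with Coch among its leading genes. By plate, Fgfr4 in OM-like cells was 23.4 and 18.8 CPM at E14.5, 8.54 and 15.3 at E15.5, 83.1 at E16.5 and 129.8 at E17.5. It had a count in 25 of 147 and 27 of 169 OM-like cells at E14.5, 31 of 72 at E16.5 and 26 of 46 at E17.5. Its change over stages did not pass (log2 fold change 2.35 ± 1.37 SE, edgeR adjusted p = 0.558).

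Stage was tested inside the SS2_20 plates, with E16.5 replicate 3 and E17.5 set against both E14.5 plates in each class. In SGN-like cells 2.76% of 16850 genes passed (0.961% higher, 1.80% lower). Of the 33 FGF genes tested Fgf12 rose and Etv1 fell. Fgf12 was 17.6 and 15.8 CPM at E14.5 and 72.5 and 115 CPM at E16.5 and E17.5 (log2 fold change 2.48 ± 0.38 SE, edgeR adjusted p = 0.00382), without overlap. Etv1 was 13.1 and 8.58 CPM and then 3.48 and 1.33 CPM (log2 fold change -2.19 ± 0.51 SE, edgeR adjusted p = 0.0424). Dusp6 (log2 fold change -1.95 ± 0.61 SE, edgeR adjusted p = 0.123) and Etv5 (log2 fold change -1.54 ± 0.39 SE, edgeR adjusted p = 0.0613) did not pass. DESeq2 called both as lower, beside Fgf12 and Etv1. It gave -1.91 ± 0.57 SE for Dusp6 (DESeq2 adjusted p = 0.0131) and -1.51 ± 0.41 SE for Etv5 (DESeq2 adjusted p = 0.00584). In glia-like cells no FGF gene passed edgeR's test, where 0.113% of all genes were called (0.0890% higher, 0.0237% lower). An unadjusted p under 0.05 was reached by 6 of 33, and DESeq2 called 1, Fgf12, as higher (log2 fold change 1.77 ± 0.38 SE, DESeq2 adjusted p = 0.000541). The shares of all genes in this paragraph are for edgeR's adjusted p alone. Counts at an unadjusted p or by DESeq2 therefore cannot be read as an excess. In OM-like cells none passed either (2 of 33 at an unadjusted p under 0.05), with 0.309% of all genes called (0.178% higher, 0.131% lower). DESeq2 called Fgf12 there too, but as lower (log2 fold change -1.73 ± 0.41 SE, DESeq2 adjusted p = 0.00224). With edgeR the difference of the stage change between OM-like and SGN-like cells passed for Fgf12 alone (log2 fold change -4.27 ± 0.53 SE, edgeR adjusted p = 0.00257). Of all genes 1.18% were called there (0.777% higher, 0.404% lower). DESeq2 also called Dusp6 (2.87 ± 0.80 SE, DESeq2 adjusted p = 0.0119) and Etv1 (2.18 ± 0.72 SE, DESeq2 adjusted p = 0.0470). Fgf12 was 10.3 and 8.62 CPM at E14.5 and 2.42 and 2.94 later in OM-like cells. Between glia-like and SGN-like cells no difference of stage change passed with edgeR or DESeq2 (5 of 33 at an unadjusted p under 0.05 with edgeR). Of all genes 0.955% were called (0.754% higher, 0.202% lower). No gene of the 3 pathway lists passed in any of these tests.

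Single plates decided these calls. Fgf12 in SGN-like cells was lost without E14.5 replicate 1 (adjusted p = 0.0543), E14.5 replicate 2 (0.0613) or E17.5 replicate 1 (0.0927). With the SS2_18 plates added it was 2.62 on the log2 scale (adjusted p = 0.274). Its difference between OM-like and SGN-like cells was lost with the Reporting Summary filter (adjusted p = 0.0973), without E14.5 replicate 1 (adjusted p = 0.05005) or E17.5 replicate 1 (0.0627). It was lost as well with the SS2_18 plates added (log2 difference -0.47, adjusted p = 0.980). Etv1 was lost without E14.5 replicate 1 (0.349), E14.5 replicate 2 (0.126), E15.5 replicate 1 (0.0823), E15.5 replicate 2 (0.0801) or E17.5 replicate 1 (0.239). With SGN-like cells of low glial markers it was -1.42 (adjusted p = 0.201). Leaving out E16.5 replicate 3 added calls among the FGF genes, and the share of all genes called without it is not given. In SGN-like cells Dusp6 (log2 fold change -3.99 ± 0.41 SE, edgeR adjusted p = 0.00168), Etv5 (-2.52 ± 0.31 SE, 0.00359) and Etv4 (-1.65 ± 0.30 SE, 0.0241) then fell. The difference of stage change passed for Dusp6 between glia-like and SGN-like cells (3.24 ± 0.48 SE, adjusted p = 0.0217). It also passed for Dusp6 (5.06 ± 0.50 SE, 0.00261) and Etv5 (1.89 ± 0.39 SE, 0.0487) between OM-like and SGN-like cells. The lone E17.5 plate was assumed to vary like the others.

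Over the whole course Fgf1, Fgf12 and, after birth, Fgf9 and Fgf10 rose in the neurons, and Fgf13, Fgf5, Spred3, Dusp6, Etv4 and Etv5 fell. E14.5, E18.5 and P3 were compared in SGN-like cells with all 12 plates in the fit. From E14.5 to E18.5, 7 of 34 tested FGF genes rose and 9 fell, where 23.6% of 17847 genes passed (14% higher, 9.54% lower). The median was -0.29 (-0.32 with genes absent from a stage at their bound) against 0.11 over all genes. From E18.5 to P3, 5 rose and 7 fell, where 24.8% passed (12.8% higher, 12.1% lower). The medians were -0.20 and -0.09. The 2 intervals share the E18.5 plates.

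Fgf1, an acidic FGF that is released without a signal peptide, was 1.72 and 4.92 CPM at E14.5, 5.53 and 6.76 at E15.5, 16.54, 16.53 and 8.06 at E16.5, and 22.8 at E17.5. It stood at 36.6 and 38.9 CPM at E18.5 and 108 and 97.7 at P3. It rose up to E18.5 (log2 fold change 3.52 ± 0.45 SE, edgeR adjusted p = 0.000365) and after (log2 fold change 1.73 ± 0.40 SE, edgeR adjusted p = 0.00906). No plate of a later stage of these 3 overlapped an earlier one. Fgf12 was 17.6 and 15.8 CPM at E14.5, 30.6 and 31.8 at E15.5, 107, 96.9 and 72.5 at E16.5, and 115 at E17.5. It stood at 171 and 193 CPM at E18.5 and 534 and 458 at P3. Fgf12 too rose up to E18.5 (log2 fold change 3.44 ± 0.19 SE, edgeR adjusted p = 2.75e-06) and after (log2 fold change 1.73 ± 0.17 SE, edgeR adjusted p = 8.40e-05). Fgf13 went the other way. It was 633 and 402 CPM at E14.5, 208 and 296 at E15.5, 159, 164 and 132.7 at E16.5, and 130.2 at E17.5. It stood at 115 and 130.5 CPM at E18.5 and 92.9 and 95.5 at P3. The drop passed up to E18.5 (log2 fold change -2.08 ± 0.22 SE, edgeR adjusted p = 0.000122) but not after (log2 fold change -0.10 ± 0.22 SE, edgeR adjusted p = 0.793). Fgf11 was 33.5 and 25.5 CPM at E14.5, 28.3 and 55.0 at E15.5, 43.0, 42.7 and 39.4 at E16.5, and 72.3 at E17.5. It stood at 65.0 and 72.5 CPM at E18.5 and 54.6 and 45.1 at P3. It rose up to E18.5 (log2 fold change 1.21 ± 0.27 SE, edgeR adjusted p = 0.00845).

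Fgf9 and Fgf10 rose after birth. Fgf9 was 53.6 and 56.0 CPM at E14.5, 65.1 and 43.3 at E15.5, 46.9, 39.8 and 31.1 at E16.5, and 64.6 at E17.5. It stood at 83.4 and 83.1 CPM at E18.5 and 180.3 and 189 at P3. Fgf9 rose from E18.5 to P3 (log2 fold change 1.44 ± 0.21 SE, edgeR adjusted p = 0.000752). Fgf10 was 365 and 415 CPM at E14.5, 248 and 266 at E15.5, 253, 248.6 and 299 at E16.5, and 411 at E17.5. It stood at 404 and 430.3 CPM at E18.5 and 638 and 823 at P3. Fgf10 rose over the same interval (log2 fold change 1.09 ± 0.14 SE, edgeR adjusted p = 0.000302). Both P3 plates lay above every embryonic plate for each gene. Fgf5, known for its part in the hair growth cycle, was 49.4 and 54.4 CPM at E14.5, 3.55 and 10.998 at E15.5, 2.82, 3.85 and 3.05 at E16.5, and 4.87 at E17.5. It stood at 2.19 and 2.32 CPM at E18.5 and 0.444 and 0.386 at P3. It fell up to E18.5 (log2 fold change -4.53 ± 0.51 SE, edgeR adjusted p = 0.000156) and after (log2 fold change -2.15 ± 0.46 SE, edgeR adjusted p = 0.00666). Fgf18 was 4.52 and 5.05 CPM at E14.5, 3.76 and 2.77 at E15.5, 10.98, 11.5 and 2.69 at E16.5, and 6.07 at E17.5. It stood at 10.2 and 10.1 CPM at E18.5 and 26.3 and 28.3 at P3. Its rise was after E18.5 (log2 fold change 1.71 ± 0.54 SE, edgeR adjusted p = 0.0413). Fgf3 was 10.3 and 5.05 CPM at E14.5 and had 3 counts at E18.5 (edgeR adjusted p = 0.0171). Fgf8 went from 1.20 and 4.42 CPM to 0.00990 and 0.0424 CPM (log2 fold change -6.62 ± 1.55 SE, edgeR adjusted p = 0.0130). Fgf7 and Fgf23 had no count at E14.5 and stood at 1.01 and 1.48 CPM and 15.3 and 11.2 CPM at E18.5. That is at least 13.8-fold and 147-fold higher by a floor of 3 counts over the E14.5 plates (edgeR adjusted p = 0.0301 and 0.0124). Without E14.5 replicate 1 the bounds were 6.57-fold and 70.1-fold, and without E14.5 replicate 2 they were 7.24-fold and 77.3-fold. Fgf23 at E18.5 lay in the II-like cells described further on, 26 and 20 of the 325 and 335 SGN-like cells, at 163 and 156 CPM against 0.482 and 0.0480 CPM in type I-like cells.

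Of the genes used as readouts of the pathway, Dusp6, Spred3, Etv4 and Etv5 fell in the neurons, and Spry2 and Spry4 rose up to E18.5. Dusp6 was 435 and 311 CPM at E14.5, 141 and 218 at E15.5, 57.1, 60.3 and 173 at E16.5, and 23.5 at E17.5. It stood at 109 and 85.3 CPM at E18.5 and 29.2 and 25.4 at P3. Dusp6 fell up to E18.5 (log2 fold change -1.95 ± 0.48 SE, edgeR adjusted p = 0.0136) and after (log2 fold change -1.54 ± 0.47 SE, edgeR adjusted p = 0.0351). Etv4 was 98.2 and 112 CPM at E14.5, 159 and 204 at E15.5, 46.5, 41.8 and 118 at E16.5, and 33.5 at E17.5. It stood at 36.7 and 28.6 CPM at E18.5 and 4.82 and 3.02 at P3. Etv4 fell up to E18.5 (log2 fold change -1.69 ± 0.44 SE, edgeR adjusted p = 0.0185) and after (log2 fold change -2.76 ± 0.46 SE, edgeR adjusted p = 0.00150). Etv5 was 126 and 103 CPM at E14.5, 67.6 and 84.7 at E15.5, 33.9, 31.1 and 59.9 at E16.5, and 20.0 at E17.5. It stood at 25.8 and 27.4 CPM at E18.5 and 10.8 and 12.8 at P3. Etv5 fell up to E18.5 (log2 fold change -2.12 ± 0.29 SE, edgeR adjusted p = 0.000584) and after (log2 fold change -0.89 ± 0.28 SE, edgeR adjusted p = 0.0427). The order was not the same on all plates. The SS2_18 plates at E16.5 had less Dusp6 than the SS2_20 plate of that stage, Dusp6 at E18.5 stood above E17.5, and Etv4 was higher at E15.5 than at E14.5. Spred3 was 49.3 and 44.2 CPM at E14.5, 62.1 and 71.8 at E15.5, 37.6, 38.6 and 38.1 at E16.5, and 30.3 at E17.5. It stood at 17.3 and 15.9 CPM at E18.5 and 4.48 and 3.59 at P3. It fell in the first interval (log2 fold change -1.50 ± 0.18 SE, edgeR adjusted p = 0.000229) and in the second (log2 fold change -1.75 ± 0.18 SE, edgeR adjusted p = 9.51e-05). Etv1 went from 13.1 and 8.58 CPM at E14.5 to 1.66 and 1.15 CPM at E18.5 (log2 fold change -2.95 ± 0.68 SE, edgeR adjusted p = 0.0101). Spry4 was 33.3 and 37.0 CPM at E14.5, 54.7 and 49.0 at E15.5, 75.4, 79.7 and 50.5 at E16.5, and 40.5 at E17.5. It stood at 65.2 and 66.5 CPM at E18.5 and 22.3 and 21.6 at P3. Spry4 went up (log2 fold change 0.90 ± 0.20 SE, edgeR adjusted p = 0.00952) and then down (log2 fold change -1.30 ± 0.20 SE, edgeR adjusted p = 0.00105). Spry2 was 34.5 and 37.7 CPM at E14.5, 52.9 and 69.5 at E15.5, 63.6, 50.8 and 27.0 at E16.5, and 16.7 at E17.5. It stood at 78.6 and 79.6 CPM at E18.5 and 117 and 80.2 at P3. Its rise up to E18.5 passed (log2 fold change 1.13 ± 0.33 SE, edgeR adjusted p = 0.0317). Spred2 fell from 5.12 and 5.08 CPM at E18.5 to 1.56 and 1.61 CPM at P3 (log2 fold change -1.40 ± 0.41 SE, edgeR adjusted p = 0.0288). The receptor genes Fgfr1 (log2 fold change -0.28 ± 0.20 SE, edgeR adjusted p = 0.350, up to E18.5) and Fgfr2 to Fgfr4 and Fgfrl1 did not pass in either interval. Nor did Fgf6, Fgf14 to Fgf17, Fgf21, Fgf22, Spry1 and Spred1, while Fgf2, Fgf4, Fgf20 and Spry3 fell under the filter.

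Glial transcripts rose in the same libraries. The summed CPM of 10 glial markers in SGN-like cells was 66.0 to 92.8 at E14.5, 2533 to 2547 at E18.5 and 4734 to 5786 at P3. It was 1.19 to 2.47, 466 to 572 and 1874 to 3314 when only cells at or below their plate's median glial level were summed. Spry2 was 256 and 254 CPM and Dusp6 460.3 and 464 CPM in the few glia-like cells of the E18.5 plates. Among SGN-like cells with low glial levels Spry2 no longer rose (log2 fold change -0.16, adjusted p = 0.827). Dusp6 no longer fell after E18.5 (-0.08, adjusted p = 0.952). Up to E18.5 the calls of Fgf7 (adjusted p = 0.0672), Fgf8 (0.226), Etv1 (0.0606) and Etv4 (0.186) were lost, and after it those of Fgf1 (0.156), Fgf5 (0.452), Fgf18 (0.0980), Spred2 (0.128) and Etv5 (0.553), each in the same direction. The other calls in both intervals passed with low glial markers. With the study's glial genes kept in the clustering, Spry2 up to E18.5 (0.0978) and Dusp6 (0.172), Spred2 (0.0661), Fgf18 (0.0502) and Etv5 (0.139) after it did not pass. With the Reporting Summary filter Dusp6 (0.0567) and Etv5 (0.105) were lost after E18.5, as was Spred2 without the 5% of cells with the most counts (0.0646).

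Single plates decided several of these calls, the adjusted p then reached being given in brackets. Up to E18.5, without E14.5 replicate 1, Fgf7 (0.102), Dusp6 (0.0626) and Spry2 (0.118) no longer passed. Without E14.5 replicate 2, Fgf7 (0.0914), Fgf11 (0.0522), Etv4 (0.0582) and Spry2 (0.0849) no longer passed. Without E18.5 replicate 1, Fgf7 (0.0670), Fgf3 (0.0628), Dusp6 (0.0577), Etv4 (0.0650), Etv1 (0.0561), Spry2 (0.114), Spry4 (0.0558) and Fgf8 (0.118) no longer passed. Without E18.5 replicate 2, Fgf7 (0.0893), Fgf3 (0.126), Dusp6 (0.0992), Fgf11 (0.0642), Etv4 (0.120), Etv1 (0.0934), Spry2 (0.124), Spry4 (0.0664) and Fgf8 (0.0755) no longer passed. Without E16.5 replicate 2, Spry2 (0.0509) no longer passed. After E18.5, without P3 replicate 2, Fgf5 (0.0535), Dusp6 (0.172), Spred2 (0.111), Fgf18 (0.146) and Etv5 (0.105) did not. Without E18.5 replicate 1, Dusp6 (0.155), Spred2 (0.108), Fgf18 (0.190), Etv5 (0.119) and Fgf1 (0.0818) did not. Without E18.5 replicate 2, Dusp6 (0.0706), Spred2 (0.0985), Fgf18 (0.177), Etv5 (0.149) and Fgf1 (0.0631) did not. Without P3 replicate 1, Dusp6 (0.115), Spred2 (0.112), Fgf18 (0.118), Etv5 (0.187) and Fgf1 (0.0573) did not. Without E16.5 replicate 1, Fgf18 (0.0506) did not. Without E15.5 replicate 1, Etv5 (0.0522) did not. Without E15.5 replicate 2, Etv5 (0.0524) did not. Fgf1, Fgf5, Fgf23, Fgf12, Fgf13, Spred3 and Etv5 up to E18.5, and Fgf9, Fgf10, Fgf12, Spry4, Spred3 and Etv4 after it, passed whichever plate was left out.

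**Figure D1:**
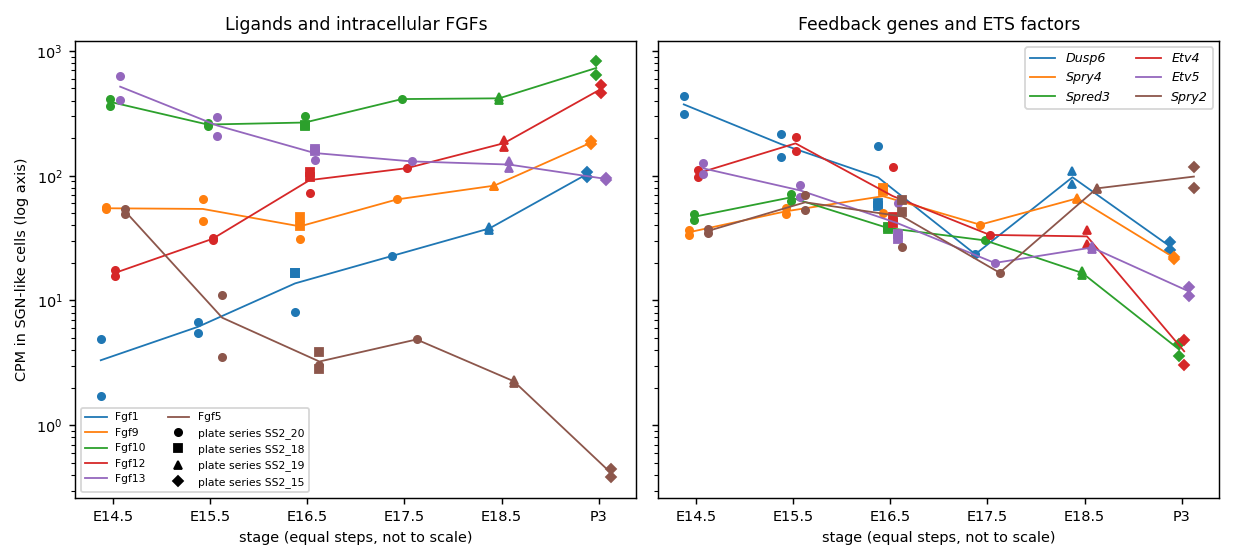
Levels (CPM, log scale) of FGF genes in SGN-like cells by stage, 1 point per plate, with point shape for the plate series and a line through the stage means. Fgf12 climbs from 17.6 and 15.8 CPM at E14.5 to 534 and 458 CPM at P3, and Etv4 drops from 98.2 and 112 CPM to 4.82 and 3.02 CPM.

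Among the pathway lists in SGN-like cells, 4 of 23 tested coreceptor and heparan sulfate genes rose and 2 fell up to E18.5, and 0 rose and 6 fell of 23 after. Of 18 relay genes 1 rose and 2 fell, then 4 and 4 of 18. Of 13 other ERK feedback and target genes 2 rose and 2 fell, then 1 and 4 of 13. Of all genes 23.6% and 24.8% passed in these intervals. The median log2 fold changes of the 3 lists were 0.31, -0.15 and -0.22 up to E18.5 and -0.42, 0.05 and -0.75 after. The immediate early genes Egr1 (2.10 ± 0.20 SE, adjusted p = 5.32e-05) and Fos (1.26 ± 0.20 SE, adjusted p = 0.00147) rose up to E18.5. Both Egr1 (-1.63 ± 0.20 SE, adjusted p = 0.000229) and Fos (-2.04 ± 0.21 SE, adjusted p = 9.09e-05) fell after it. The phosphatase Dusp4 (-1.99 ± 0.25 SE, adjusted p = 0.000305) fell up to E18.5.

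At E18.5 the 18 inner hair cell-like (IHC-like) and 12 outer hair cell-like (OHC-like) cells of both plates were summed as cochlear HC-like cells. They were set against SGN-like cells of the same 2 plates, and the plate was not a block in the hair cell fits. Of 33 FGF genes tested 13 were higher and 12 lower, where 52.2% of 15821 genes passed (23.9% higher, 28.3% lower). The medians were -0.05 and -0.13, the former the same with absent genes at their bound. Their defining markers summed to 9908 to 10217 CPM. Neuronal markers summed to 1148 to 1255 CPM, against 10300 to 10571.5 in SGN-like cells of the same plates. The 7 otic epithelium markers summed to 1646 to 1939 CPM, against 15.8 to 16.9 in those SGN-like cells. The part of epithelial transcripts in the levels of HC-like cells was not tested.

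Fgf8, the ligand of inner hair cells, was 126 and 202 CPM in cochlear HC-like cells, with 0.00990 and 0.0424 CPM in the neurons, or 7 counts (log2 fold change 12.35 ± 0.53 SE, edgeR adjusted p = 6.05e-05). Fgf3 was 27.6 and 42.2 CPM with 3 counts in SGN-like cells (edgeR adjusted p = 0.000212). Fgf20 was 7.19 and 10.5 CPM in cochlear HC-like cells, with 0 and 0.0495 CPM in the neurons (log2 fold change 8.19 ± 1.00 SE, edgeR adjusted p = 0.00171). Of the endocrine ligands, Fgf15, an intestinal hormone of bile acid control, was 8.54 and 9.09 CPM with 2 counts in SGN-like cells (edgeR adjusted p = 0.000173). Fgf21 was 51.5 and 20.9 CPM in cochlear HC-like cells, with 0.149 and 0.0919 CPM in the neurons (log2 fold change 8.19 ± 0.63 SE, edgeR adjusted p = 0.000343). None of these 5 ligand genes overlapped between the classes. Fgf17, at 0.449 and 1.43 CPM in cochlear HC-like cells, with 0.149 and 0.0990 CPM in the neurons, was also higher (log2 fold change 2.92 ± 0.85 SE, edgeR adjusted p = 0.0353).

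Fgf9, Fgf10 and Fgf1 were lower in cochlear HC-like cells than in neurons. Fgf9 was 6.74 and 5.88 CPM in cochlear HC-like cells, with 83.4 and 83.1 CPM in the neurons (log2 fold change -3.77 ± 0.18 SE, edgeR adjusted p = 8.31e-05). Fgf10 was 114 and 174 CPM in cochlear HC-like cells, with 404 and 430.3 CPM in the neurons (log2 fold change -1.57 ± 0.23 SE, edgeR adjusted p = 0.00327), though IHC-like cells had 243 and 216 CPM of it. Fgf1 was 25.6 and 13.9 CPM in cochlear HC-like cells, with 36.6 and 38.9 CPM in the neurons (log2 fold change -0.99 ± 0.29 SE, edgeR adjusted p = 0.0364). Fgf23 had no count in cochlear HC-like cells, at least 44.5-fold below SGN-like cells (edgeR adjusted p = 0.00126; 20.99-fold without E18.5 replicate 1 and 22.7-fold without E18.5 replicate 2). Fgf6 had none either, at least 2.59-fold below (edgeR adjusted p = 0.0398; 1.10-fold and 1.43-fold without those plates). The keratinocyte growth factor gene Fgf7 (log2 fold change -3.65 ± 1.09 SE, edgeR adjusted p = 0.0382) and Fgf18 (log2 fold change -3.10 ± 0.54 SE, edgeR adjusted p = 0.00588) were lower too. The intracellular factors divided. Fgf12 was 0.225 and 0.357 CPM in cochlear HC-like cells, with 171 and 193 CPM in the neurons (log2 fold change -9.28 ± 0.27 SE, edgeR adjusted p = 3.04e-05). Fgf13 was 2.47 and 4.46 CPM in cochlear HC-like cells, with 115 and 130.5 CPM in the neurons (log2 fold change -5.15 ± 0.28 SE, edgeR adjusted p = 0.000115). Fgf14 was 3.15 and 2.496 CPM in cochlear HC-like cells, with 0.763 and 0.573 CPM in the neurons, higher in hair cells (log2 fold change 2.03 ± 0.51 SE, edgeR adjusted p = 0.0213).

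Receptor genes were higher in hair cells where they passed. Fgfr3 was 156 and 106 CPM in cochlear HC-like cells, with 0.327 and 0.580 CPM in the neurons (log2 fold change 8.09 ± 0.38 SE, edgeR adjusted p = 8.31e-05). Fgfrl1 was 198 and 198 CPM in cochlear HC-like cells, with 6.14 and 5.74 CPM in the neurons (log2 fold change 5.02 ± 0.14 SE, edgeR adjusted p = 2.95e-05). Fgfr4 was 3.60 and 3.57 CPM in cochlear HC-like cells, with 0.168 and 0.163 CPM in the neurons (log2 fold change 4.38 ± 0.56 SE, edgeR adjusted p = 0.00208). Fgfr1 was 109.9 and 77.9 CPM in cochlear HC-like cells, with 58.2 and 59.1 CPM in the neurons (log2 fold change 0.63 ± 0.18 SE, edgeR adjusted p = 0.0336). Among feedback and ETS genes, Spry4 was 3.37 and 1.60 CPM in cochlear HC-like cells, with 65.2 and 66.5 CPM in the neurons (log2 fold change -4.81 ± 0.31 SE, edgeR adjusted p = 0.000186). Etv4 was 4.27 and 2.85 CPM in cochlear HC-like cells, with 36.7 and 28.6 CPM in the neurons (log2 fold change -3.25 ± 0.30 SE, edgeR adjusted p = 0.000626). Spred2 was 0.225 and 1.07 CPM in cochlear HC-like cells, with 5.12 and 5.08 CPM in the neurons (log2 fold change -2.93 ± 0.61 SE, edgeR adjusted p = 0.0117). These 3 were lower in hair cells. Dusp6 was 198 and 186 CPM in cochlear HC-like cells, with 109 and 85.3 CPM in the neurons (log2 fold change 0.94 ± 0.15 SE, edgeR adjusted p = 0.00469). Etv1 was 16.6 and 4.81 CPM in cochlear HC-like cells, with 1.66 and 1.15 CPM in the neurons (log2 fold change 2.86 ± 0.64 SE, edgeR adjusted p = 0.0147). Both were higher. With the plate as a block the calls of Fgf6, Fgf7, Fgf14 and Fgf17 were lost (adjusted p = 0.0835, 0.0939, 0.109 and 0.149). Fgf6 and Fgf7 were also lost with DESeq2 (adjusted p = 0.102 and 0.0837). Fgf14 and Fgf17 were lost against SGN-like cells with low glial markers (adjusted p = 0.0627 and 0.0616), where Fgf6 fell under the low-count filter. Fgf17 was lost without that filter (0.0831), Fgf6 with the glial genes kept in the clustering (0.0721) and Fgf1 without the 5% of cells with the most counts (0.0556). Leaving out either plate left 1 sample on each side and no test. Fgf5, Fgf11, Fgfr2, Spry1, Spry2, Spred1, Spred3 and Etv5 were tested and did not pass.

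Coreceptor and heparan sulfate genes gave 10 higher and 7 lower of 21 tested in cochlear HC-like cells (median 0.72), relay genes 3 and 8 of 18 (-0.51), and other ERK feedback and target genes 3 and 5 of 13 (-0.26), beside 52.2% of all genes. The sulfotransferases Hs6st2 (4.34 ± 0.64 SE, adjusted p = 0.00332) and Hs6st3 (-3.76 ± 0.93 SE, adjusted p = 0.0208) were among the largest changes of the first list.

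Fgf8, Fgf10, Fgf20 and Fgf15 were higher in inner and Fgf21 and Fgfr3 in outer hair cells. Between OHC-like (8 and 4 cells) and IHC-like cells (6 and 12) of the 2 plates, 2 of 21 tested FGF genes were higher and 4 lower in OHC-like cells. Over all 11445 genes 7.84% passed (3.50% higher, 4.33% lower). The median was -0.24 against -0.01. Fgf8 was 288 and 258 CPM in IHC-like and 0 and 3.20 CPM in OHC-like cells (log2 fold change -7.94 ± 0.58 SE, edgeR adjusted p = 3.41e-05). It had a count in 6 of 6 and 12 of 12 IHC-like cells, in 0 of 8 and 1 of 4 OHC-like cells, and in 0 of 95 and 1 of 98 type I SGN-like cells of the same plates, taken as the background. Median depths were 324370.5 and 384957, 340241 and 339946, and 312161 and 435032 counts per cell. Fgf10 was 243 and 216 CPM in IHC-like and 13.96 and 28.0 CPM in OHC-like cells (log2 fold change -3.57 ± 0.33 SE, edgeR adjusted p = 0.000124). Fgf20 was 16.47 and 13.3 CPM in IHC-like and 0 and 0.801 CPM in OHC-like cells, where it had 1 count (edgeR adjusted p = 0.0198). Fgf15 was 19.6 and 11.7 CPM in IHC-like cells and had none in OHC-like cells. That is at least 19.6-fold lower (edgeR adjusted p = 0.0101; 4.86-fold without E18.5 replicate 1 and 16.4-fold without E18.5 replicate 2).

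The genes higher in OHC-like cells were Fgf21 and Fgfr3. Fgf21, an endocrine ligand best known from liver, was 8.24 and 1.83 CPM in IHC-like and 84.9 and 87.3 CPM in OHC-like cells (log2 fold change 4.24 ± 0.58 SE, edgeR adjusted p = 0.00141) and had a count in 7 of 8 and 4 of 4 OHC-like cells. It also had one in 3 of 6 and 3 of 12 IHC-like cells, in 7 of 13 and 7 of 13 vestibular hair cell-like cells, and in 2 of 95 and 2 of 98 type I SGN-like cells. Fgfr3 was 0 and 28.0 CPM in IHC-like and 277 and 379 CPM in OHC-like cells (log2 fold change 4.28 ± 0.76 SE, edgeR adjusted p = 0.00607), with a count in every OHC-like cell and in 0 of 6 and 3 of 12 IHC-like cells. These 6 genes kept the IHC-like and OHC-like samples apart. The sums held few cells, and DESeq2 did not call Fgfr3 (adjusted p = 0.432). Of the pathway lists, 1 coreceptor and heparan sulfate gene was higher and 3 were lower of 17 tested, no relay gene of 18 passed and 1 other ERK gene of 10 was higher, beside 7.84% of all genes. They included the glypican Gpc4 (-3.18 ± 0.45 SE, adjusted p = 0.00160) and the heparan sulfate polymerase Ext1 (1.82 ± 0.39 SE, adjusted p = 0.0176).

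The vestibular hair cell-like (VHC-like) cells of the same plates, 13 and 13, are given as values with no test. They had 107 and 65.7 CPM of Fgf8, 314 and 180.0 CPM of Fgf10, 226 and 212 CPM of Fgfrl1 and 10.9 and 24.4 CPM of Fgf21. Fgfr3, high in OHC-like cells, was 0.260 and 0 CPM. Fgf8 had a count in 13 of 13 and 9 of 13 of these cells. In the 37 otic epithelium-like cells, spread over 6 plates, Fgf10 was 111 to 592 CPM, Fgfrl1 92.3 to 452 CPM, Fgf3 0 to 177 CPM, Fgf20 0 to 103 CPM and Fgf14 0 to 91.0 CPM. Each of these sums held few cells, and the wide ranges include plates with no count for Fgf3, Fgf20 and Fgf14.

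Type II neurons contact outer hair cells and type I neurons inner hair cells. II-like cells carried more Spry4, Spred3, Etv4 and Etv5 and less Fgf9 and Fgf10 than type I-like cells. II-like cells (26, 20, 18 and 4 cells on the E18.5 and P3 plates) were set against type I-like cells within each of those plates, the plate being the block of the fit. Of 27 FGF genes tested 6 were higher and 5 lower in II-like cells, where 3.42% of 14842 genes passed (1.72% higher, 1.70% lower). The median was -0.71 against -0.08. Fgf23, a hormone of phosphate balance best known from bone, was 163 and 156 CPM at E18.5 and 105 and 13.3 at P3 in II-like cells and 0.482 and 0.0480 CPM at E18.5 and 0.990 and 1.25 at P3 in type I-like cells (log2 fold change 7.01 ± 1.25 SE, edgeR adjusted p = 0.0400). A count of Fgf23 was found in 24 of 26, 18 of 20, 11 of 18 and 2 of 4 II-like cells and in 4 of 95, 1 of 98, 21 of 259 and 9 of 105 type I-like cells. Median depths were 333341.5, 489917.5, 872742 and 956447 counts per II-like cell and 312161, 435032, 833866 and 1080603 counts per type I-like cell. Fgf10 was 80.7 and 99.2 CPM at E18.5 and 92.2 and 123 at P3 in II-like and 484 and 479.6 CPM at E18.5 and 692 and 871 at P3 in type I-like cells (log2 fold change -2.72 ± 0.15 SE, edgeR adjusted p = 0.00366). For both genes the II-like and type I-like plates did not overlap.

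The feedback inhibitor Spred3 was 46.1 and 47.5 CPM at E18.5 and 27.0 and 35.8 at P3 in II-like and 9.89 and 12.2 CPM at E18.5 and 2.70 and 2.32 at P3 in type I-like cells (log2 fold change 2.78 ± 0.41 SE, edgeR adjusted p = 0.0249). Spry4 was 109.6 and 134 CPM at E18.5 and 51.6 and 57.8 at P3 in II-like and 42.7 and 44.5 CPM at E18.5 and 16.9 and 19.6 at P3 in type I-like cells (log2 fold change 1.46 ± 0.14 SE, edgeR adjusted p = 0.0106). Both were higher in II-like cells on every plate. Etv4 was 78.6 and 106 CPM at E18.5 and 58.4 and 34.5 at P3 in II-like and 16.2 and 16.3 CPM at E18.5 and 0.990 and 1.81 at P3 in type I-like cells (log2 fold change 3.65 ± 0.65 SE, edgeR adjusted p = 0.0394). Etv5 was 54.6 and 65.3 CPM at E18.5 and 48.0 and 55.4 at P3 in II-like and 20.1 and 28.8 CPM at E18.5 and 9.10 and 11.9 at P3 in type I-like cells (log2 fold change 1.74 ± 0.26 SE, edgeR adjusted p = 0.0267). Dusp6, at 177 and 97.0 CPM at E18.5 and 43.3 and 5.23 at P3 in II-like and 89.3 and 75.8 CPM at E18.5 and 29.0 and 28.8 at P3 in type I-like cells, did not pass (log2 fold change -0.01 ± 0.52 SE, edgeR adjusted p = 0.994).

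Fgf1 was 79.1 and 88.8 CPM at E18.5 and 176 and 257 at P3 in II-like and 36.7 and 39.2 CPM at E18.5 and 102 and 87.9 at P3 in type I-like cells (log2 fold change 1.08 ± 0.15 SE, edgeR adjusted p = 0.0221). Fgf9 was 37.7 and 34.5 CPM at E18.5 and 34.8 and 19.9 at P3 in II-like and 98.8 and 101 CPM at E18.5 and 197 and 203 at P3 in type I-like cells (log2 fold change -2.24 ± 0.35 SE, edgeR adjusted p = 0.0291). The intracellular factors Fgf13 (log2 fold change -1.36 ± 0.25 SE, edgeR adjusted p = 0.0436), Fgf11 (log2 fold change -0.91 ± 0.16 SE, edgeR adjusted p = 0.0394) and Fgf12 (log2 fold change -0.71 ± 0.13 SE, edgeR adjusted p = 0.0452) were all lower in II-like cells. Of the pathway lists, none of 21 coreceptor and heparan sulfate genes passed, and 1 of 18 relay genes was higher, the adaptor Frs2 (1.65 ± 0.14 SE, adjusted p = 0.0103). Of the rest, 2 of 13 other ERK genes were higher, Flrt3 (2.94 ± 0.43 SE, adjusted p = 0.0239) and Fos (1.06 ± 0.16 SE, adjusted p = 0.0280), beside 3.42% of all genes. Within the type I-like cells, given as values, Ia-like cells had 264 to 441 CPM of Fgf10 and Ib/Ic-like cells 570.4 to 935 CPM. Fgf1 was 57.0 to 260.2 and 25.7 to 62.4 CPM.

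Markers of other cells differed between the same sums. The 10 glial markers summed to 3723 and 2768 CPM in II-like and 1894 and 2145 CPM in type I-like cells at E18.5, and to 4526 and 5109 and 4897 and 5933 CPM at P3. The 12 OM markers summed to 1283 and 714 CPM against 542 and 528 CPM at E18.5 and to 281 and 170.4 against 231 and 229.8 CPM at P3. At E18.5 both lists were thus higher in II-like cells. Of the OM markers Car3 and Prrx1 were at 0 in all 4 II-like sums, and Twist1 in 3 of them. Of the glial markers none was at 0. Among cells with low glial markers the calls of Fgf1 (adjusted p = 0.0686), Fgf11 (0.296) and Fgf12 (0.246) were lost and the other 8 passed. That setting held only 4 and 5 II-like cells on the E18.5 plates and 10 on P3 replicate 1. P3 replicate 2, with 2 II-like cells, was below the minimum of 4 and dropped out of the fit. The part of the OM markers in the result was not tested.

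The 4 plates carried these calls together. Without E18.5 replicate 1, E18.5 replicate 2, P3 replicate 1 and P3 replicate 2 in turn, 2, 1, 0 and 10 FGF genes passed. The share of all genes called in each of these fits is not given, so the counts cannot be set beside it. Without P3 replicate 1 the adjusted p reached 0.266 for Fgf23, 0.115 for Fgf10, 0.185 for Spred3, 0.115 for Spry4, 0.139 for Etv4 and 0.172 for Etv5, each in the same direction. It reached 0.115 for Fgf1, 0.229 for Fgf9, 0.214 for Fgf11, 0.259 for Fgf12 and 0.219 for Fgf13. Fgf12 was lost without any 1 of the 4 plates, and Fgf10 without P3 replicate 1 alone. With all other SGN-like cells as the type I-like class, a setting chosen after seeing the data, Fgf9 (0.0548), Fgf11 (0.0527), Fgf13 (0.0589) and Etv4 (0.0803) did not pass. Fgf12 was lost as well with the glial genes kept in the clustering (0.0512) and without the 5% of cells with the most counts (0.0575). At a finer clustering the II-like class held 88 and 76 E18.5 cells in place of 26 and 20, and no FGF gene passed.

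**Figure D2:**
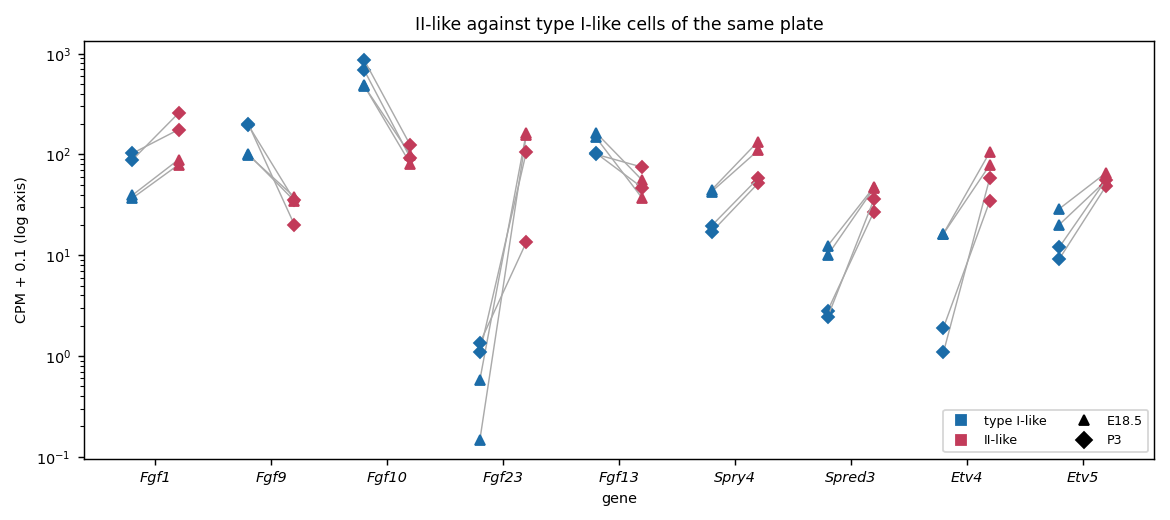
Levels (CPM, log scale) of FGF genes in II-like and type I-like cells, with a line joining the 2 classes of each of the 4 plates at E18.5 and P3. Fgf23, Spred3, Etv4 and Etv5 are higher and Fgf10 lower in II-like cells on all 4 plates.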

How the data were processed

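The deposited table held raw read counts per gene, 24489 genes and 92 ERCC spike-ins, for each well. The authors aligned single-end Smart-seq2 reads with STAR to mm10 plus ERCC, kept uniquely mapped reads and counted them per gene with featureCounts, and whether strand was used is not given in the sources used here. A further plate of 384 wells that no label describes was not used. Wells with over 1000 genes and under 5% ERCC counts were kept, and the study's Reporting Summary filter, which leaves 4109 cells, was an alternative. The check for copied libraries found 0 kept cells with the counts of another.

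Cells were normalised, reduced to 2000 variable genes and 30 principal components and clustered by stage (Scanpy 1.11.5, leidenalg 0.10.2, resolution 1, seed 0). FGF genes, the pathway lists and the study's list of glial genes, which holds Dusp6, Spry2, Fgfr1 and Spred1, were kept out of the clustering. Clusters were named from fixed markers, and the naming rule was adjusted once the clusters and their leading genes, some of them FGF genes, had been seen and before any test. No doublet caller was run, and leaving out the 5% of cells with the most counts in each plate was an alternative. The FGF genes and all gene lists were chosen with earlier results of these data known.

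Raw counts were summed per class and plate, with at least 10 cells, or 3 for hair cells and 4 for II-like cells. Summed counts of all genes were tested with edgeR 4.0.16 in R 4.3.3 (quasi-likelihood test, TMM factors of 0.838 to 1.07, filterByExpr, Benjamini-Hochberg adjustment, threshold 0.05), after the scripts had been tested on simulated data. Relative log expression and DESeq2 moved the median of all genes by at most 0.0739 and 0.0727 on the log2 scale. Other alternatives were no low-count filter, finer clustering, sums of at least 5 cells, cells with low glial markers and each plate left out. The plate was a block between SGN-like, glia-like and OM-like cells and between II-like and type I-like cells, since same-numbered samples are then 1 plate. The hair cell comparisons and the differences of stage change were fitted without it. Each plate gave both classes there too, and the block was an alternative. Depth was 228326 to 1092427 median counts per SGN-like cell across plates, and without molecular identifiers levels and floors cover counting error only. Genes with a mean of at least 5 CPM in a class and stage were named with levels, and those called with a log2 fold change of at least 1 with their statistics. Promoters came from RefSeq (GRCm38.p6) and gene positions from a GRCm38 annotation.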

Additional observations from a re-analysis of the deposited data

Results flagged for a closer look

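In each group of 6 SS2_20 plates the highest or lowest plate was flagged where its gap to the next was large against the range, which chance alone does in about 1 of 20 groups, and 76 groups were tested. Fgfr2 in OM-like cells was 52.5 CPM at E17.5 against 121 to 150.0 CPM on the other plates, and Fgfr2 in glia-like cells was 14.7 CPM at E16.5 replicate 3 against 1.34 to 5.62 CPM. Fgf18 in OM-like cells was 17.2 CPM at E16.5 replicate 3 against 6.51 to 10.3 CPM. Fgf10 in OM-like cells was 10.99 CPM at E15.5 replicate 2 against 0 to 3.84 CPM. In SGN-like cells Fgf8 was 4.42 CPM at E14.5 replicate 2, the TrkCcre plate, against 0.0610 to 1.20 CPM, and Fgfr4 was 1.27 CPM at E17.5 against 0 to 0.401 CPM. Near the floor, Fgf8 in glia-like cells was 0.0194 CPM at E17.5 and Fgf22 in OM-like cells 0.110 CPM at E16.5 replicate 3, each with no count on the other plates.

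The stage change of Fgf12 differed between OM-like and SGN-like cells by the interaction term (log2 difference -4.27, edgeR adjusted p = 0.00257), since it rose in SGN-like cells and was lower on both later plates than on both E14.5 plates in OM-like cells.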

How the results depend on the processing

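Counts are of FGF genes called. For the alternatives the share of all genes called is not given, so a changed count cannot be set beside a change over all genes. For SGN-like cells at E16.5 and E17.5 against E14.5 (2 genes) DESeq2 gave 4, low glial markers 1 and single plates left out 0 to 5. For the same stages DESeq2 gave 1 in glia-like and 1 in OM-like cells, where edgeR gave none. The difference of stage change between glia-like and SGN-like cells gave 0 to 1 with plates left out, and that between OM-like and SGN-like cells (1 gene) 3 with DESeq2, 0 with the Reporting Summary filter, 0 with sums of at least 5 cells and 0 to 3 with plates left out. From E14.5 to E18.5 (16 genes) plates left out gave 7 to 19, and from E18.5 to P3 (12 genes) they gave 7 to 12 and low glial markers 7. OHC-like against IHC-like cells (6 genes) gave 10 without the low-count filter. II-like against type I-like cells (11 genes) gave 0 at Leiden resolution 2, where other cells joined the class, 7 with all other SGN-like cells as type I-like, a setting chosen after seeing the data, and 0 to 10 with plates left out. Spry2 from E14.5 to E18.5 turned to -0.16 with low glial markers. The other causes were not tested.

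With plates left out the class comparisons gave 11 to 12 of 14 genes for glia-like against SGN-like, 18 to 21 of 20 for OM-like against SGN-like and 9 to 11 of 10 for OM-like against glia-like cells. Without the plate as a block these gave 12, 22 and 11, and II-like against type I-like cells 13. With the block, cochlear HC-like against SGN-like cells gave 21 in place of 25, OHC-like against IHC-like cells 6, and the differences of stage change 0 and 1. Over single genes called, 1005 values kept their direction and call under the settings other than plates left out, 66 lost the call and 1 reversed. With a plate left out 597 kept and 113 lost it. The 597 include 43 values of cochlear HC-like against SGN-like and 7 of OHC-like against IHC-like cells. Those had no test and so kept no call. Comparisons of hair cells with 1 plate left out have no residual degrees of freedom and are values with no test.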
